A study of Mus musculus with 30 samples.

Results

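Transcripts of 8 autosomal genes that encode histone demethylases were followed in mouse embryonic stem (ES) cells over 8 days of differentiation. The members were Kdm5a, Kdm5b, Kdm6b, Kdm2b, Kdm3a, Kdm4a, Kdm4c and Kdm1a, found by the gene symbol that the platform annotation gives each probe set. They held 21 of the 45101 probe sets of the Affymetrix array and 8 of the 18194 genes read from it. Where a gene had several probe sets, the one with the highest average over the arrays stood for it. Of the 21 probe sets, 14 had a highest group mean of at least 100 intensity units and 6 stayed under 20, near the floor of the array. These 6 were 3 of the 6 probe sets of Kdm5a and 1 each of Kdm5b, Kdm6b and Kdm4a. A further probe set that names Kdm6b together with another gene was left out.

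The study compared ES cells that carry floxed Jmj alleles, named Fl/Fl and described as wild type in the labels, with ES cells described as Jmj -/- mutants and named null. Jmj (Jumonji) is an older name of Jarid2. Both genotypes were sampled undifferentiated at day 0 and at days 2, 4, 6 and 8 after removal of the cytokine LIF, and no other agent or allele is named. Of the 10 Fl/Fl arrays, each day had 2. The 20 null arrays comprised 3 of day 0, 5 each of days 2, 4 and 6, and a pair of day 8. The labels call these biological replicates, and the sources used here do not say whether they came from separate cultures or from 1 clone per genotype. All p-values therefore measure the spread between these arrays, which may be technical. In RNA of whole cultures, fewer cells of a type and less RNA per cell cannot be told apart.

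Histone demethylases remove methyl groups from lysines of histone tails and so reverse the work of the histone methyltransferases. Most use a JmjC domain, an iron- and oxoglutarate-dependent oxygenase fold, whereas Kdm1a (LSD1) is a flavin-dependent amine oxidase that works in the CoREST and NuRD complexes. Kdm5a and Kdm5b act on methylated H3K4, a mark of active promoters, Kdm3a, Kdm4a and Kdm4c on methylated H3K9 (the Kdm4 enzymes also on H3K36), and Kdm6b on H3K27, the residue methylated by PRC2. Kdm2b brings a variant of the Polycomb complex PRC1 to unmethylated CpG islands. Jarid2 carries a JmjC domain without demethylase activity and binds PRC2.

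The null arrays were not uniform. By the level of Eif2s3y, a gene of the Y chromosome, they formed 3 sets; these were drawn from the data and are no part of the study's design. Intensity of Eif2s3y was 594 to 981 in 11 null arrays (high set), 217 to 365 in 5 (middle set) and 11 to 16 in 4 (low set), against 130 to 234 in the 10 Fl/Fl arrays. A sign of RNA quality, actin signal at the 3' end over that at the 5' end, was 1.29 to 1.43 in the high set, 1.57 to 2.02 in the middle set, 1.54 to 1.68 in the low set and 1.48 to 2.04 in Fl/Fl. Each of days 2, 4 and 6 held 3 arrays of the high set, and day 8 held none. Jarid2 itself was not lower in null (3335 to 3340 in Fl/Fl and 2872 to 4082 in null at day 0), and the sources used here do not place its probe set relative to the deleted part, so it does not check the labels. Markers of undifferentiated ES cells were present in both genotypes at day 0, when 10 of 10 had a group mean of at least 100. Summed intensity of 10 fibroblast or feeder markers went from 234 to 519 in Fl/Fl at day 0 to 11625 to 15220 at day 8, and in null from 96 to 215 to 652 to 1475. At day 8 the fibroblast markers Dcn and Fap were under 20 in both genotypes. The 4 blood markers were under 20 in every group. Summed intensity of 6 trophoblast markers, mostly the keratins Krt8 and Krt18, was 6616 to 8469 in Fl/Fl and 1092 to 1890 in null at day 0, and 49873 to 51028 and 33468 to 53668 at day 8, with Cdx2 and Elf5 under 20. At day 8 the sums in Fl/Fl and null were 1235 to 1598 and 501 to 7508 for 7 mesoderm markers, 666 to 753 and 492 to 497 for 8 primitive endoderm markers, and 1217 to 1313 and 587 to 1461 for 6 neural markers. The part of these differences between arrays in the demethylase results was not tested, and calls that changed with the high set alone or without it are given beside the results.

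Most of the 8 genes changed over the days after LIF removal, in opposite directions. Between day 0 and day 8, Kdm5a and Kdm6b rose and Kdm3a, Kdm4c, Kdm5b and Kdm1a fell in both genotypes, each with an adjusted p under 0.05 in limma. Kdm2b fell in null, and Kdm4a passed the test in neither genotype. The calls came to 6 of 8 genes in Fl/Fl and 7 of 8 in null, against 33.6% and 33.4% of all genes. By direction, 2 members rose and 4 fell in Fl/Fl, where 15% of all genes rose and 18.6% fell, and 2 rose and 5 fell in null, where 14.9% rose and 18.5% fell. Among the 7859 genes with a highest group mean of at least 100, a class to which all 8 belong, the shares called were 58.1% and 58.7%, so most expressed genes moved as well. The median log2 change of the 8 genes was -0.44 in Fl/Fl and -0.52 in null, against -0.05 and -0.04 over all genes. Without the high set, Kdm3a (-1.83), Kdm4c (-1.97), Kdm5b (-1.46), Kdm1a (-0.67), Kdm6b (1.73) and Kdm2b (-0.33, adjusted p = 0.0371) still passed in null, and Kdm5a did not (0.95, adjusted p = 0.0708).

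**Figure D1:**
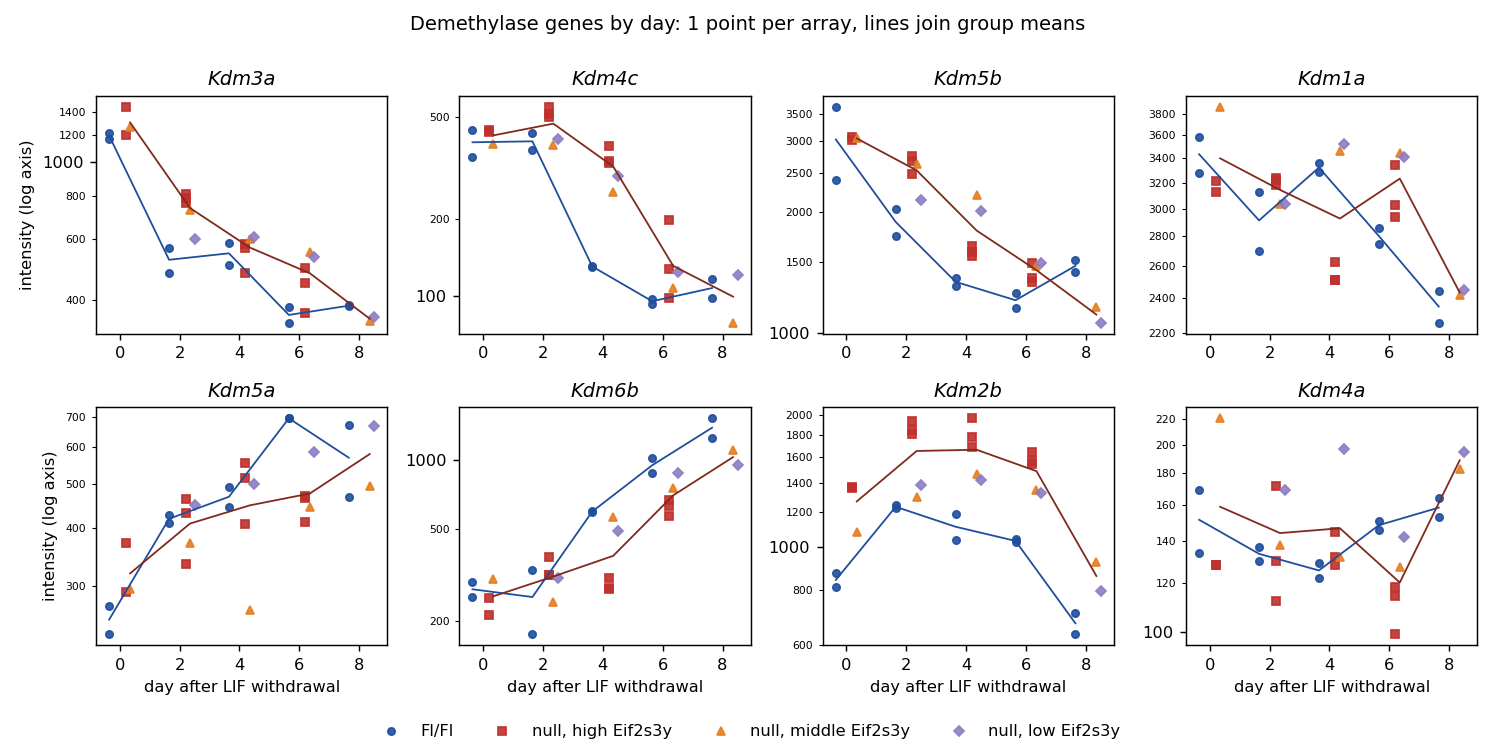
Intensity of the probe set that stands for each of the 8 demethylase genes (log axis, scale set per panel) against the day after LIF withdrawal, with 1 point per array, shifted sideways for legibility; circles are Fl/Fl, squares, triangles and diamonds are null arrays of the high, middle and low Eif2s3y sets, and lines join the mean intensity of each genotype. The upper row falls, with Kdm4c at day 4 at 131 and 129 in Fl/Fl and 254 to 387 in null, and Kdm2b lies higher in null at every day.

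Kdm3a, an H3K9 demethylase of ES cells and testis and a target of the hypoxia factor HIF1, was the member called in both genotypes by day 2. In Fl/Fl its intensity was 1214 and 1171 at day 0, 480 and 565 at day 2, 505 and 586 at day 4, 343 and 381 at day 6, and 387 and 383 at day 8. In null it was 1266, 1197 and 1445 at day 0, 601, 729, 763, 807 and 786 at day 2, 600, 607, 480, 567 and 580 at day 4, 549, 532, 366, 447 and 495 at day 6, and 348 and 358 at day 8. In both genotypes every array of day 2 lay below every array of day 0. Day 0 and day 2 groups did not overlap in 30.3% of all genes in Fl/Fl and 10.4% in null. The log2 change of Kdm3a from day 0 to day 2 was -1.19 in Fl/Fl (SE 0.157, adjusted p = 8.56e-05) and -0.82 in null (SE 0.115, adjusted p = 8.34e-05). By day 8 the fall was 3.08-fold in Fl/Fl (log2 -1.62, adjusted p = 8.96e-08) and 3.65-fold in null (log2 -1.87, adjusted p = 3.53e-09). At day 2, 2 of 8 members had fallen in Fl/Fl (Kdm3a and Kdm5b) and 0 risen, against 1.91% and 1.24% of all genes (3.15% together). In null 1 of 8 had fallen and 0 risen, against 3.02% and 2.4% (5.41% together). Among genes with a highest group mean of at least 100, 2.75% fell and 2.39% rose in Fl/Fl. In null 5.04% of that class fell and 4.92% rose.

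Kdm4c, a demethylase of trimethylated H3K9 and H3K36, kept its day 0 level at day 2 and fell after it. Its Fl/Fl arrays read 448 and 351 at day 0, 434 and 372 at day 2, 131 and 129 at day 4, 97 and 93 at day 6, and 116 and 98 at day 8. Its null arrays read 392, 438 and 446 at day 0, 410, 389, 500, 550 and 515 at day 2, 254, 294, 332, 337 and 387 at day 4, 107, 124, 98, 127 and 198 at day 6, and 78 and 120 at day 8. The Fl/Fl arrays dropped between day 2 and day 4, while the 5 null arrays of day 4 still lay between the levels of day 2 and day 6. The log2 change from day 0 to day 4 was -1.58 in Fl/Fl (SE 0.249, adjusted p = 0.000118) and -0.41 in null (SE 0.182, adjusted p = 0.14). At day 8 it was -1.86 in Fl/Fl (adjusted p = 5.71e-06) and -2.09 in null (adjusted p = 3.95e-07), 3.62-fold and 4.25-fold lower than at day 0. Against day 0, 2 members were higher and 3 lower at day 4 in Fl/Fl, beside 8.01% and 10.5% of all genes (18.5% together), and 1 higher and 2 lower in null, beside 6.36% and 8.34% (14.7%). At day 6, 2 were higher and 3 lower in each genotype, beside 13.4% and 19.2% in Fl/Fl (32.7%) and 12.2% and 18% in null (30.2%). Among genes with a highest group mean of at least 100, 31.4% (Fl/Fl) and 26.3% (null) were called at day 4. At day 6 these shares were 50.4% and 50.7%.

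Kdm5b, an H3K4 demethylase (also PLU-1 or Jarid1b), fell over the first days. In Fl/Fl it read 3647 and 2405 at day 0, 1743 and 2028 at day 2, 1366 and 1309 at day 4, 1253 and 1154 at day 6, and 1519 and 1412 at day 8. The null arrays gave 3053, 3061 and 3018 at day 0, 2142, 2630, 2476, 2747 and 2675 at day 2, 2197, 2002, 1641, 1589 and 1547 at day 4, 1468, 1488, 1337, 1366 and 1489 at day 6, and 1161 and 1056 at day 8. The pair of Fl/Fl arrays at day 0 differed more than any later pair, and both still lay above every later Fl/Fl array. Fl/Fl groups of day 0 and a later day did not overlap in 30.3% (day 2) to 57.7% (day 6) of all genes. The day 8 change of Kdm5b was -1.01 on the log2 scale in Fl/Fl (SE 0.161, adjusted p = 3.96e-05) and -1.46 in null (SE 0.147, adjusted p = 1.46e-07). A dimmer probe set of Kdm5b, 1427142_s_at, gave -1.09 (adjusted p = 0.00148 among probe sets) and -1.49 (adjusted p = 2.34e-05 among probe sets). The third, 1457482_at, with group means of at most 79, gave -1.03 (adjusted p = 0.0877) and -1.65 (adjusted p = 0.00355).

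The 3 genes with the larger falls, Kdm3a, Kdm4c and Kdm5b, moved together over the 30 arrays: Pearson's r of their log2 values was 0.91 for Kdm5b with Kdm3a, 0.85 for Kdm5b with Kdm4c and 0.76 for Kdm3a with Kdm4c. These r share the same arrays, days and scaling. The 250 bases before a RefSeq start of each are printed to show the promoters of the members that fell together, 5′ to 3′ on the gene's strand, from GRCm38.p6. Kdm3a lies at chr6:71632918-71633167 (minus strand), Kdm4c at chr4:74251629-74251878 (plus strand) and Kdm5b at chr1:134559928-134560177 (plus strand). Of starts within 1000 bases of one another, only the most upstream was kept. Of the kept starts, the window with the most CG pairs was printed, with 20 against 0 for Kdm3a and 19 against 0 for Kdm4c. Capitals mark ACGTG, the core of the sequence bound by HIF and found in the E-box CACGTG, searched on both strands.

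Kdm3a: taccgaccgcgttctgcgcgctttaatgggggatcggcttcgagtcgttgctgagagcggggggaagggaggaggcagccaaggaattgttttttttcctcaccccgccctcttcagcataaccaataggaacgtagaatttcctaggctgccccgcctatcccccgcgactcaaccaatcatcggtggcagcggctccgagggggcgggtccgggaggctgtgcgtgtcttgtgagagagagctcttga
Kdm4c: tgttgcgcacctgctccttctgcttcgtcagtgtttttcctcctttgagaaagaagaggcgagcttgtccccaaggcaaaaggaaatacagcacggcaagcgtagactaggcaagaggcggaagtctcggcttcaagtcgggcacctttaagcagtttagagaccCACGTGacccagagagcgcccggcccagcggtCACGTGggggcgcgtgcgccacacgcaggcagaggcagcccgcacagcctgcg
Kdm5b: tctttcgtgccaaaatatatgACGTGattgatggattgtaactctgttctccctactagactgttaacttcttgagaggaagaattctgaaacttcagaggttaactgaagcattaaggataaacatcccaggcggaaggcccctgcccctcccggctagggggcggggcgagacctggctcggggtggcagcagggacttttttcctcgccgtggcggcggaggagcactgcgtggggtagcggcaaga

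The Kdm4c window held 4 matches to ACGTG, since each of its 2 palindromes CACGTG is read on both strands, and the Kdm5b window held 1. The Kdm3a window held 0. Kdm4c and Kdm3a each have a further start more than 1000 bases away, and the windows before those held 0 matches. The windows of Kdm1a, Kdm2b and Kdm4a also held 0 matches. Of 32851 windows of the same length before RefSeq starts, 16.6% held at least 1 match. Those windows were not chosen by CG pairs, and ACGTG itself holds a CG, so the share is not matched to the choice of printed windows. ATGCNAAT, a form of the octamer read by POU factors such as Oct4, was in 0 of the 3 windows and in 2.86% of all. The table has entries for 6 of the 8 members, 12 in all, and none for Kdm5a or Kdm6b. A match is a description of letters, not of a bound site.

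Kdm1a fell in both genotypes. In Fl/Fl it read 3279 and 3588 at day 0, 2699 and 3126 at day 2, 3285 and 3359 at day 4, 2744 and 2859 at day 6, and 2256 and 2445 at day 8. Null values were 3863, 3125 and 3209 at day 0, 3035, 3034, 3237, 3224 and 3182 at day 2, 3459, 3523, 2513, 2627 and 2508 at day 4, 3442, 3409, 2937, 3030 and 3340 at day 6, and 2417 and 2451 at day 8. The day 8 arrays of both genotypes lay below all of their day 0 arrays. Day 0 and day 8 groups did not overlap in 54.6% of all genes in Fl/Fl and 37.9% in null. The change of Kdm1a was -0.55 in Fl/Fl (SE 0.139, adjusted p = 0.0039) and -0.47 in null (SE 0.127, adjusted p = 0.00586), 1.46-fold and 1.39-fold lower. The second probe set, 1426761_at, fell by 0.63 (adjusted p = 0.000785 among probe sets) in Fl/Fl and by 0.99 (adjusted p = 1.88e-06) in null on the log2 scale.

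Kdm6b (Jmjd3), the H3K27 demethylase that removes the mark placed by PRC2, rose more than any other member. In Fl/Fl it read 296 and 255 at day 0, 176 and 334 at day 2, 598 and 597 at day 4, 875 and 1018 at day 6, and 1239 and 1513 at day 8. In null it read 305, 252 and 214 at day 0, 308, 242, 316, 317 and 381 at day 2, 565, 493, 276, 309 and 279 at day 4, 756, 879, 572, 668 and 632 at day 6, and 1103 and 950 at day 8. At day 4 the 3 null arrays of the high set (276, 309 and 279) were near the day 0 level, and the other pair (565 and 493) near the Fl/Fl arrays. By day 8 Kdm6b had risen 4.93-fold in Fl/Fl (log2 2.30, SE 0.313, adjusted p = 6.8e-06) and 3.98-fold in null (log2 1.99, SE 0.286, adjusted p = 1.25e-05). Its dimmer probe set, 1447612_x_at, rose by 1.75 (adjusted p = 9.72e-05 among probe sets) and 1.13 (adjusted p = 0.00287). Over the 30 arrays its log2 values ran against those of Kdm4c (r = -0.90) and of Pou5f1, which encodes Oct4 (r = -0.83).

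Kdm5a (RBP2), an H3K4 demethylase that binds the retinoblastoma protein, rose from a day 0 mean of 253 in Fl/Fl and 319 in null. In Fl/Fl it read 271 and 235 at day 0, 411 and 428 at day 2, 446 and 491 at day 4, 695 and 694 at day 6, and 671 and 469 at day 8. Null arrays showed 295, 290 and 372 at day 0, 449, 371, 334, 463 and 431 at day 2, 265, 500, 556, 408 and 515 at day 4, 445, 587, 471, 412 and 466 at day 6, and 494 and 667 at day 8. Fl/Fl day 8 overlapped day 4 in its lower array, and null day 4 replicate 1 (265) lay below all day 0 null arrays. The rise to day 8 was 2.20-fold in Fl/Fl (log2 1.14, SE 0.257, adjusted p = 0.00139) and 1.80-fold in null (log2 0.85, SE 0.235, adjusted p = 0.00753). The call in null was lost without null day 8 replicate 2 (log2 0.63, adjusted p = 0.151). The probe sets of Kdm5a did not give the same sizes. 1452360_a_at rose in Fl/Fl by 0.98 (SE 0.309, adjusted p = 0.0202 among probe sets) and gave 0.67 in null (adjusted p = 0.0846), while 1437106_at gave 0.20 and -0.06 and passed in neither.

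**Figure D2:**
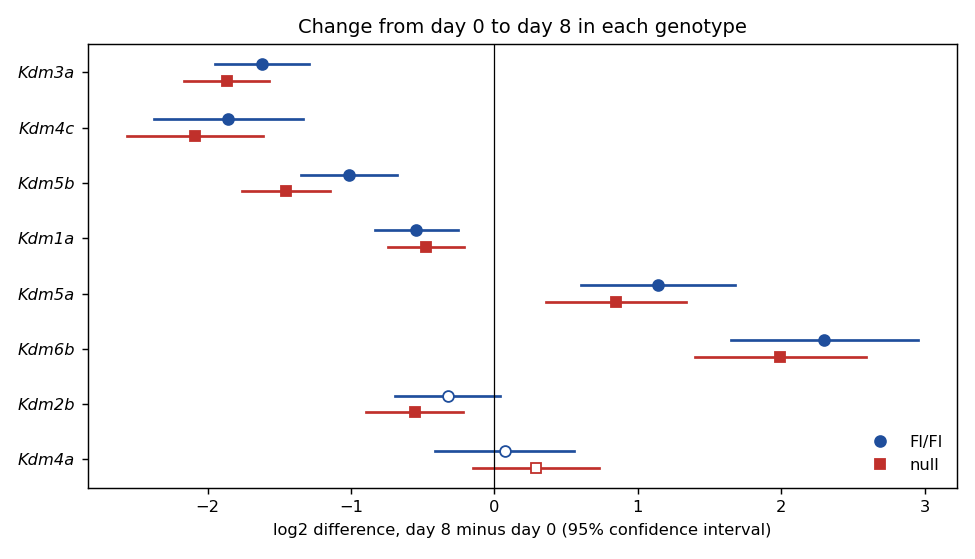
Log2 difference between day 8 and day 0 for the 8 demethylase genes in Fl/Fl (circles) and null (squares), with 95% confidence intervals from limma; filled symbols have an adjusted p under 0.05. Kdm6b lies farthest to the right, at 2.30 in Fl/Fl, and Kdm4c farthest to the left, at -2.09 in null.

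Members of 1 family did not move alike. Of the H3K4 demethylases, Kdm5a rose while Kdm5b fell (r = -0.75 over the 30 arrays), and of the H3K9 and H3K36 demethylases, Kdm4c fell while Kdm4a passed no test. Kdm4a, like Kdm4c a demethylase with double Tudor domains, read 169 and 134, 130 and 137, 122 and 129, 151 and 146, and 164 and 153 in Fl/Fl from day 0 to day 8. In null it read 221, 128 and 128 at day 0, 169, 138, 112, 172 and 130 at day 2, 132, 197, 132, 128 and 145 at day 4, 127, 142, 99, 114 and 118 at day 6, and 183 and 195 at day 8. Both Fl/Fl arrays of day 4 lay below those of day 0, and the day 8 arrays overlapped those of day 0. Fl/Fl groups of day 0 and day 4 did not overlap in 46.2% of all genes. The change of Kdm4a to day 8 was 0.07 in Fl/Fl (95% interval -0.41 to 0.56, adjusted p = 0.966) and 0.29 in null (-0.15 to 0.73, adjusted p = 0.33). Without null day 0 replicate 1, the 221, the change in null was 0.55 (adjusted p = 0.0349).

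Asked whether a gene differed between any days, limma's F test called 7 of 8 members in Fl/Fl and 7 of 8 in null, all but Kdm4a, against 39.4% and 39.3% of all genes. Among genes with a highest group mean of at least 100, the class of all 8, these shares were 64.6% and 69.4%. Kdm4a was called in null after quantile normalization (adjusted p = 0.0139), with centring on the 75th percentile (0.00928), with the mean of all probe sets (0.022), and without null day 0 replicate 1 (0.0297) or day 4 replicate 2 (0.0496). Kdm5a had the highest adjusted p of the 7 in null (0.0423), which rose above the threshold with 15 of the 30 arrays left out in turn, up to 0.133 without null day 8 replicate 2. It was also lost in null with the mean of all probe sets (0.0829) or of bright ones (0.0514) and with only the null groups fitted (0.0896). Array weights (0.0755), the replicate number as a block (0.0643) and leaving out the high set (0.198) lost it too. Kdm1a was lost in null after quantile normalization (0.0529) and with only the null groups fitted (0.0655). With 1 array left out, Kdm1a was lost in Fl/Fl without day 0 replicate 2 (0.0546), day 8 replicate 1 (0.117) or day 8 replicate 2 (0.0513), and in null without day 8 replicate 1 (0.106) or replicate 2 (0.103). Read by the probe set that stands for each gene, the change from day 0 to day 8 did not pass as different between the genotypes for any member. By limma 0 of 8 had an adjusted p under 0.05 and 0 of 8 an unadjusted p under 0.05, against 1.09% of all genes (adjusted). The second probe set of Kdm2b, outside this count, went from a mean of 873 to 378 in Fl/Fl and from 875 to 752 in null. The intervals of the genotype difference in that change were wide for the counted probe sets, from -0.89 to 0.01 for Kdm5b and from -1.19 to 0.57 for Kdm6b.

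The genotypes were then compared day by day. In the mean of the 5 daily differences, 3 of 8 members were higher in null and 0 lower: Kdm2b, Kdm4c and Kdm3a. Over all genes 7.76% were higher and 15.5% lower, 23.2% in all, and among genes with a highest group mean of at least 100, 15% were higher and 25.7% lower. That split depends on the scaling. Of the genes called, 33.4% were higher in null with the deposited values, 49.0% after quantile normalization and 80.8% with arrays centred on their 75th percentile, which moved the median of all genes by 0.11. By limma, day 0 gave 0 of 8 members (0.247% of all genes higher and 0.929% lower, 1.18% together), with 1 at an unadjusted p under 0.05. Day 2 gave 0 (0.104% and 0.517%, 0.621%), with 3 unadjusted. Day 4 gave 2 higher, Kdm2b and Kdm4c, and 0 lower (4.18% and 7.43%, 11.6%), with 4 unadjusted. Among genes with a highest group mean of at least 100, 8.63% were higher and 14.4% lower at day 4 (23% together). Day 6 gave 1 higher, Kdm2b, and 0 lower (3.47% and 6.46%, 9.93%), with 3 unadjusted. In the class of at least 100, 7.21% were higher and 11.4% lower at day 6 (18.6% together). Day 8 gave 0 (0.709% and 1.8%, 2.51%), with 1 unadjusted. The percentages are of calls by adjusted p. Genes at an unadjusted p under 0.05 were not counted over the whole array, so the unadjusted member counts have no background.

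Marker sums of the genotypes overlapped on some days and not on others. At day 2 the summed intensity of the 10 ES cell markers was 40703 to 43239 in Fl/Fl and 40244 to 43326 in null. The trophoblast sum of that day was 5317 to 5526 in Fl/Fl and 710 to 1289 in null. At day 6 the mesoderm sums (3834 to 5518 and 2901 to 12977) and neural sums (860 to 1054 and 497 to 1067) overlapped. At day 4 the summed intensity of the 10 ES cell markers was 14589 to 16963 in Fl/Fl and 24840 to 31649 in null, and at day 6 it was 4501 to 4939 and 14371 to 21776. At day 6 the mean of Pou5f1 was 439 in Fl/Fl against 4093 in null. The mesoderm sum at day 4 was 3577 to 3722 in Fl/Fl and 260 to 849 in null, and the trophoblast sum 26588 to 28896 and 1773 to 4869. Their part in the differences of the members was not tested.

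**Figure D3:**
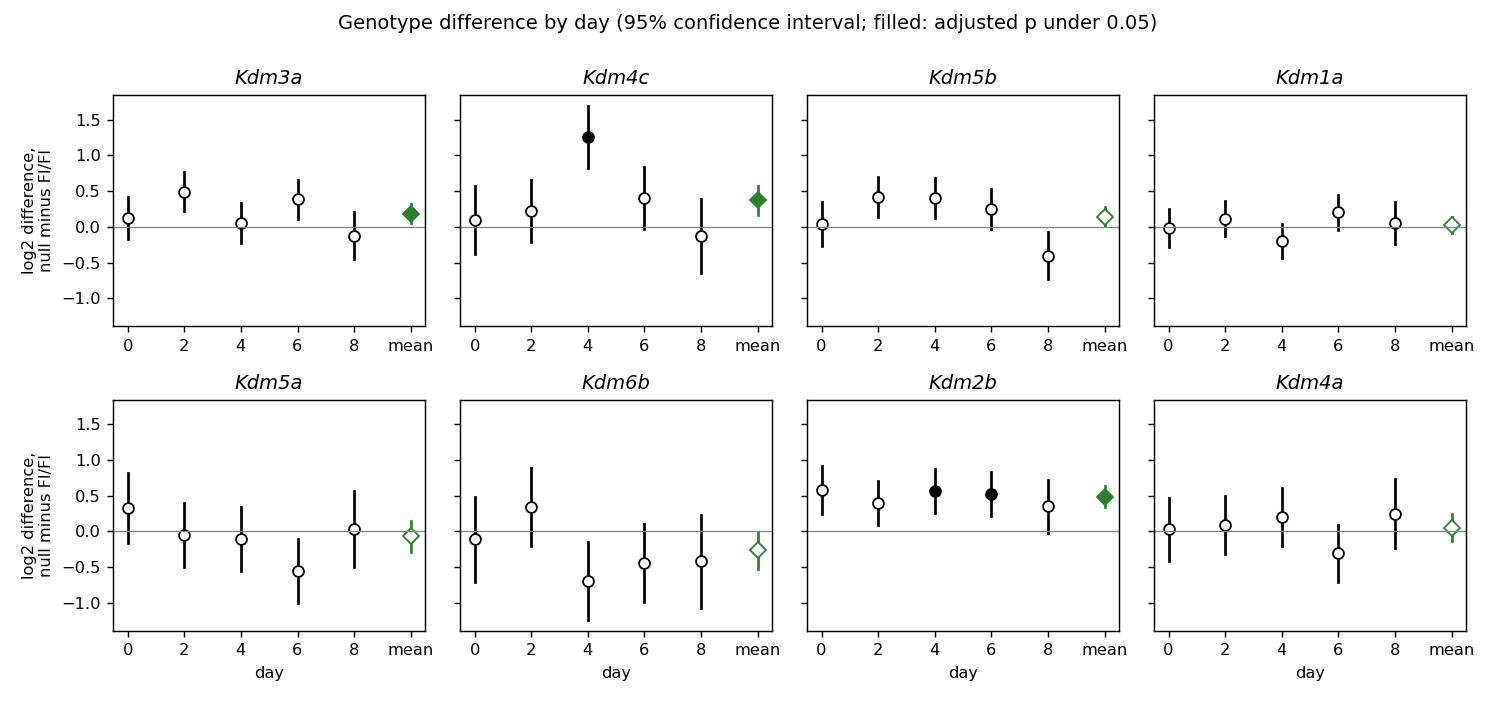
Log2 difference, null minus Fl/Fl, of the 8 demethylase genes at each day and averaged over the 5 days (green diamonds), with 95% confidence intervals from limma; filled symbols have an adjusted p under 0.05. Kdm2b lies above 0 at every day, and Kdm4c stands out at day 4, at 1.26.

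Kdm2b (Fbxl10), read by its brighter probe set, was higher in null on average and its groups did not overlap on any day. In Fl/Fl it read 812 and 873 at day 0, 1225 and 1245 at day 2, 1037 and 1188 at day 4, 1025 and 1041 at day 6, and 709 and 634 at day 8. In null it read 1081, 1362 and 1368 at day 0, 1381, 1299, 1937, 1848 and 1803 at day 2, 1466, 1422, 1779, 1691 and 1963 at day 4, 1350, 1328, 1641, 1548 and 1573 at day 6, and 927 and 793 at day 8. At each of the 5 days the lowest null array lay above the highest Fl/Fl array, and all 20 were above the Fl/Fl average for the day. Groups that do not overlap were found in 12.9% of all genes at day 2 and in 25.3% at day 8, the lowest and highest shares of the 5 days. The share of genes without overlap on all 5 days together was not counted. Nor were null arrays above the Fl/Fl average counted over all genes, here or for Kdm4c and Kdm3a below.

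The averaged difference in Kdm2b was 0.49 on the log2 scale (SE 0.070, 95% interval 0.34 to 0.63, adjusted p = 4.71e-05), 1.40-fold. From day 0 to day 8 the daily differences were 0.58, 0.40, 0.57, 0.52 and 0.35, with adjusted p of 0.0869, 0.304, 0.0136, 0.0274 and 0.368. The day 4 call was lost without Fl/Fl day 4 replicate 1 (adjusted p = 0.21). For day 6 the value was 0.182 and 0.191 without Fl/Fl day 6 replicate 1 or 2, and 0.0566, 0.0532 and 0.0542 without null day 6 replicates 3, 4 or 5. At day 0 it was 0.0282 without null day 0 replicate 1.

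The size of the Kdm2b difference went with the Eif2s3y sets. Averaged over the days each set was present, null arrays lay above the Fl/Fl mean by 0.65 in the high set (11 arrays), 0.34 in the middle set (5 arrays) and 0.28 in the low set (4 arrays). With the high set left out the averaged difference was 0.32 (SE 0.040, adjusted p = 0.00124), that of day 4 0.38 (adjusted p = 0.0343) and that of day 6 0.37 (adjusted p = 0.0651). With the high set alone the differences from day 0 to day 6 were 0.69, 0.59, 0.70 and 0.62, with adjusted p of 9.11e-05, 0.000202, 8.06e-06 and 2.59e-05. The averaged call was present with each of the 30 arrays left out in turn and under each of the 11 other settings tried.

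The second Kdm2b probe set, 1459861_s_at, gave an averaged difference of 0.38 (SE 0.087, adjusted p = 0.00396 among probe sets, of which 19% were called), but another pattern by day. Its difference was -0.01 at day 0 (null mean 875, Fl/Fl mean 873) and 0.99 at day 8 (adjusted p = 0.0131), and days 0, 2, 4 and 6 did not pass. The genotypes overlapped at days 0 and 2. With the mean of both probe sets, the Kdm2b calls of day 4 (adjusted p = 0.053) and day 6 (adjusted p = 0.104) were lost. It read 931 and 815 at day 0 and 413 and 343 at day 8 in Fl/Fl, and 711, 890 and 1025 at day 0 and 791 and 713 at day 8 in null. It fell in Fl/Fl by 1.20 on the log2 scale (adjusted p = 0.000222), where the brighter probe set, 1452198_at, fell by 0.33 (adjusted p = 0.174 among genes) and did not pass over all arrays (0.00308 with only the high set of null arrays in the fit and 0.0145 without that set). In null the brighter one changed by -0.56 (adjusted p = 0.0103 among genes, and 0.148 without null day 8 replicate 2) and the second by -0.20 (adjusted p = 0.536 among probe sets). RefSeq gives Kdm2b 4 starts, the outermost 88749 bases apart. The sources used here do not say which transcripts each probe set reads.

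**Figure D4:**
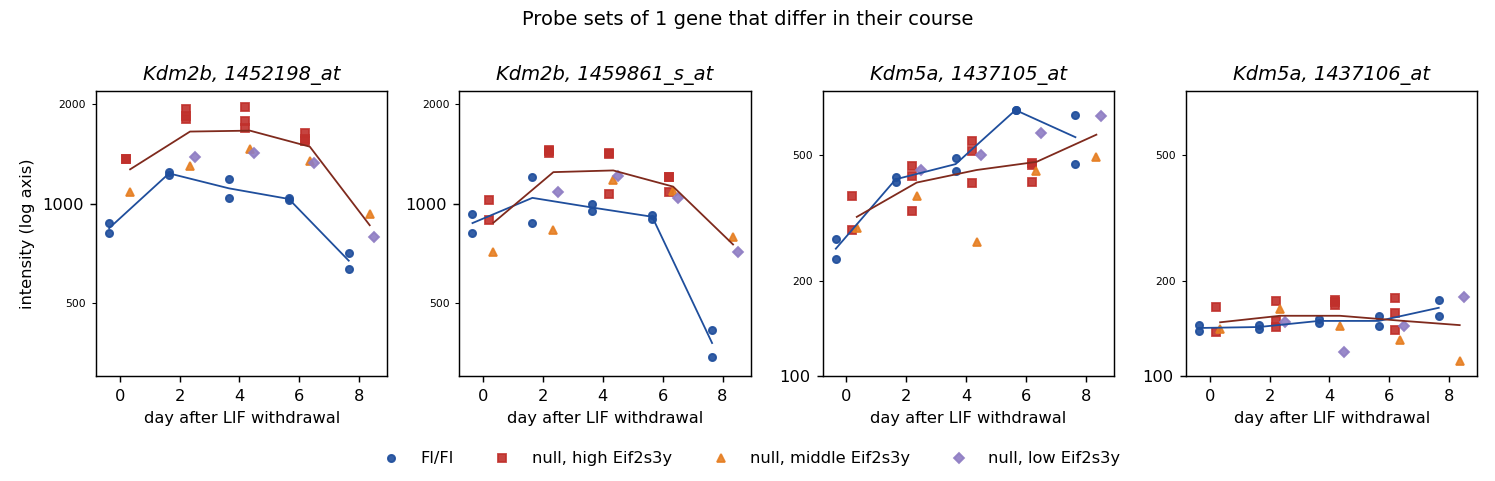
Intensity (log axis) by day of the 2 probe sets of Kdm2b and of 2 of the probe sets of Kdm5a, with 1 point per array and lines through the genotype means; symbols are Fl/Fl (circles) and null arrays of the high, middle and low Eif2s3y sets (squares, triangles and diamonds). 1459861_s_at of Kdm2b drops to 413 and 343 in Fl/Fl at day 8 but to 791 and 713 in null, and 1437106_at of Kdm5a stays between 112 and 178.

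Kdm4c was higher in null at day 4, when the 5 null arrays (254 to 387) all lay above both Fl/Fl arrays (131 and 129). The genotypes did not overlap at day 4 in 24.7% of all genes. Over the 30 arrays the r of Kdm4c with Pou5f1 was 0.74. The difference was 1.26 on the log2 scale (SE 0.209, 95% interval 0.83 to 1.70, adjusted p = 0.000348), 2.40-fold. It was 1.41 with the high set alone (adjusted p = 0.000224) and 1.05 without it (adjusted p = 0.0134), and with 1 array left out it ran from 1.19 to 1.34, with adjusted p up to 0.0104. On the other days it was 0.10, 0.22, 0.40 and -0.13 (days 0, 2, 6 and 8), and none of these passed. limma's F test for a genotype difference that changes between days called Kdm4c alone of the 8 (adjusted p = 0.0458). It called 4.94% of all genes and 7.51% of those with a highest group mean of at least 100. The Kdm4c call was lost with 22 of the 30 arrays left out in turn, up to 0.196 without Fl/Fl day 4 replicate 2. It was also lost without the high set (0.147). Averaged over the days the difference was 0.37 (SE 0.099, adjusted p = 0.00971, higher than the Fl/Fl mean in 17 of 20 arrays), and 0.23 without the high set (adjusted p = 0.125). With the replicate number as a block it was 0.25 (adjusted p = 0.0646).

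Kdm3a was higher in null on average by 0.19 (SE 0.062, adjusted p = 0.0356), with 17 of 20 null arrays above the Fl/Fl average for the day. Without the high set it was 0.21 (adjusted p = 0.0265). With the replicate number as a block the adjusted p was 0.0696, and with array weights 0.0888. The call was lost with 9 of the 30 arrays left out in turn: Fl/Fl day 0 replicate 1 (adjusted p = 0.0507) or 2 (0.0643), day 2 replicate 1 (0.0933), day 4 replicate 1 (0.0915), day 6 replicate 1 (0.0806), day 8 replicate 1 (0.0558) or 2 (0.0639), null day 0 replicate 3 (0.061) and null day 8 replicate 1 (0.057). With all arrays no single day passed, the nearest being day 6 with 0.38 (adjusted p = 0.0698) and day 2 with 0.49 (adjusted p = 0.1). Day 2 passed with the high set alone (0.59, adjusted p = 0.00998; 0.34 and 0.394 without it). Day 6 passed without the high set (0.57, adjusted p = 0.0293; 0.26 and 0.202 with it alone). It also passed after quantile normalization (0.0201), with centring on the 75th percentile (0.00594, where day 2 gave 0.0424) and with array weights (0.0139, where day 2 gave 0.032). At day 2 the lowest null array (601) lay above the higher Fl/Fl array (565). The genotypes did not overlap at day 2 in 12.9% of all genes.

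Kdm5b lay higher in null at day 2 (0.42, adjusted p = 0.181) and day 4 (0.41, adjusted p = 0.0529) and lower at day 8 (-0.40, adjusted p = 0.219), and none of these passed with all arrays. Day 2 passed with the high set alone (0.48, adjusted p = 0.0298; 0.34 and 0.747 without it). At day 4 the difference was 0.25 with the high set alone (adjusted p = 0.207) and 0.65 without it (adjusted p = 0.064). The averaged value of Kdm5b was 0.14 (adjusted p = 0.115). It was 0.20 without Fl/Fl day 0 replicate 1 (adjusted p = 0.0138) and 0.28 over days 0 to 6 (adjusted p = 0.00589). At day 4 the adjusted p fell below the threshold with 7 of the 30 arrays left out in turn, down to 0.0209.

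Kdm6b lay lower in null at day 4 by 0.70 (adjusted p = 0.0973), which passed without null day 4 replicate 1 (-0.85, adjusted p = 0.0272) or replicate 2 (-0.80, adjusted p = 0.0473). These are the arrays of the middle and low sets. Against the high set alone Kdm6b was lower by 1.04 at day 4 (adjusted p = 0.00172) and by 0.60 at day 6 (adjusted p = 0.0496). Without the high set it differed by -0.18 (adjusted p = 0.899) and -0.21 (adjusted p = 0.93). Kdm1a at day 4 split in the same way, with 2513, 2627 and 2508 in the high set, 3459 and 3523 in the other pair and 3285 and 3359 in Fl/Fl. Its difference was -0.20 with all arrays (adjusted p = 0.35), -0.38 with the high set alone (adjusted p = 0.000631) and 0.07 without it (adjusted p = 0.699). Averaged over the days Kdm1a differed by 0.03 (95% interval -0.09 to 0.14), or 0.13 without the high set (adjusted p = 0.0266). Kdm4a differed on average by 0.05 (-0.14 to 0.24, adjusted p = 0.774). At day 6 it was lower in null with the high set alone (-0.42, adjusted p = 0.0489; -0.14 and 0.93 without it) and with array weights (-0.36, adjusted p = 0.0208). Averaged over the days Kdm6b differed by -0.26 (adjusted p = 0.139). Kdm5a differed by -0.55 at day 6 (adjusted p = 0.121), or -0.63 against the high set alone (adjusted p = 0.0207) and -0.44 without it (adjusted p = 0.555), and by between -0.11 and 0.32 on the other days.

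Null was also set against Fl/Fl of the sampling day before it. Null at day 4 against Fl/Fl at day 2, and null at day 6 against Fl/Fl at day 4, each gave 0 of 8 calls in limma, with 1.72% (0.346% higher and 1.37% lower) and 0.473% (0.0824% and 0.39%) of all genes called and 2 and 1 members at an unadjusted p under 0.05. The unadjusted count was not made over all genes. Kdm4c differed by -0.34 (95% interval -0.77 to 0.10) and -0.03 (-0.47 to 0.40) in these comparisons, Kdm6b by 0.59 (adjusted p = 0.321) and 0.21 (adjusted p = 1), and Kdm2b by 0.42 in both (adjusted p = 0.174 and 0.279). Against the high set alone Kdm2b passed in both, at 0.55 (adjusted p = 0.000361) and 0.51 (adjusted p = 0.000509).

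The other autosomal demethylases and JmjC relatives on the array, 19 of 20 listed, gave 5 higher and 2 lower in the averaged genotype comparison, with a median of 0.02 against 0 over all genes, of which 7.76% were higher and 15.5% lower. Between day 0 and day 8, 1 rose and 5 fell in Fl/Fl (15% and 18.6% of all genes), and 1 rose and 3 fell in null (14.9% and 18.5%). Phf2, a PHD-finger relative that acts on H3K9, was called lower in null (adjusted p = 0.000156), but near the floor of the array: its null means were 10.3 at day 0 and 19.6 at day 6, and its Fl/Fl means 15 and 46.5. Riox2, a ribosomal oxygenase, was higher in null by 0.45 (adjusted p = 0.000634) and fell 2.09-fold in Fl/Fl (adjusted p = 0.000473). Hspbap1, a JmjC protein that binds a heat shock protein, fell 7.58-fold in Fl/Fl (adjusted p = 3.08e-09) and 6.94-fold in null (adjusted p = 1.45e-09). Jarid2 fell 9.07-fold and 5.45-fold and was higher in null by 0.57 on average (adjusted p = 0.001). Of the 5 sex-linked demethylases, 1 was higher in null on average and 2 fell in each course. Kdm5c, the X-linked relative of Kdm5a and Kdm5b, was the former at 0.29 (adjusted p = 0.0338), and it fell by 0.66 in Fl/Fl (adjusted p = 0.039) and by 1.20 in null (adjusted p = 0.000187). Kdm6a (Utx), the X-linked relative of Kdm6b, fell by 0.59 in Fl/Fl (adjusted p = 0.0499) and by 0.74 in null (adjusted p = 0.00784), opposite to Kdm6b.

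Genes that work with the members were read from lists. Of 9 Kdm2b partners in the variant PRC1 complex, 3 were higher and 2 lower in null on average (7.76% and 15.5% of all genes), with a median of 0.11. Bcor, its corepressor subunit, was higher in null by 0.40 (adjusted p = 0.000146), with 0.90 at day 0 (adjusted p = 0.00234) and -0.05 at day 4 (adjusted p = 1). Skp1 and Usp7 were also higher (0.33, adjusted p = 0.000396, and 0.44, adjusted p = 0.0146), and Yaf2 was lower by 0.38 (adjusted p = 0.00129) while it rose 6.18-fold in the Fl/Fl course (adjusted p = 3.08e-09). Of 18 Kdm1a partners in CoREST and NuRD, 0 were higher and 2 lower in null, and 2 rose and 5 fell in each course (15% and 18.6% of all genes in Fl/Fl, 14.9% and 18.5% in null). Rcor1 (CoREST), the scaffold of Kdm1a, was lower in null by 0.57 (adjusted p = 0.000871) and rose 1.73-fold in Fl/Fl (adjusted p = 0.0327), while its relative Rcor2 fell 7.54-fold there (adjusted p = 0.00168). Hmg20b, another subunit, was lower in null by 0.84 (adjusted p = 0.000837).

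The opposing enzymes, 26 of 27 listed histone lysine methyltransferases, gave 3 higher and 4 lower in null on average (median -0.13), 3 up and 8 down in the Fl/Fl course and 2 up and 11 down in null. Over all genes these shares were 7.76% and 15.5%, 15% and 18.6%, and 14.9% and 18.5%, which also stand beside the hypoxia genes that follow. Setdb1 and Ehmt2 (G9a), which methylate H3K9, fell 2.32-fold (adjusted p = 2.12e-06) and 2.04-fold (adjusted p = 0.000106) in Fl/Fl, alongside the H3K9 demethylases Kdm3a and Kdm4c. Setd7, an H3K4 monomethyltransferase, rose 8.39-fold in Fl/Fl (adjusted p = 8.6e-07) and was lower in null by 0.71 (adjusted p = 0.00102). Of 15 hypoxia response genes, a class to which Kdm3a belongs, 1 rose and 5 fell in each course (median -0.77 in Fl/Fl and -0.51 in null), and 2 were higher and 2 lower in null on average. Pdk1 fell in Fl/Fl from 961 and 2358 at day 0 to 74 and 124 at day 8 (adjusted p = 3.82e-07), and Egln3 from 114 and 904 to 7 and 8 (adjusted p = 0.000105), with day 0 arrays so far apart that no single fold describes either fall. Both were higher in null by 0.99 (adjusted p = 0.000246) and 1.56 (adjusted p = 0.00183). Hk2 fell 3.24-fold in Fl/Fl (adjusted p = 6.04e-07).

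Among 7703 named genes with a highest group mean of at least 100, the pattern most like that of each member over the 30 arrays was found by Pearson's r of log2 values. Kdm4c was closest to Mkrn1 (r = 0.97) and Pla2g1b (0.97), Kdm6b to Ppic (0.95) and Slc5a3 (0.95), Kdm3a to Naprt (0.94) and Zfp710 (0.93), and Kdm5b to Mrpl17 (0.94) and Gnpnat1 (0.94). Kdm2b was closest to Cpsf2 (0.92) and Cpsf6 (0.92). The closest r was lower for Kdm5a (0.88 with Bpnt2, 0.87 with Ube2d2a), Kdm1a (0.78 with Cenpe, 0.77 with Ice2) and Kdm4a (0.74 with Dazap2, 0.68 with Mxi1). All of these r share the arrays, their scaling and the course of days.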

How the data were processed

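Total RNA (5 ug) of each sample was labelled with biotin and hybridized to 1 Affymetrix array, per the labels' protocols. The deposited table holds probe set intensity on a linear scale as whole numbers, 1 column per array. How the authors normalized and summarized them: not given in the sources used here. Array means lay between 331.8 and 363.6 and array medians at 10 or 11.

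Values were taken as log2(intensity + 4), where 4 was the 5th percentile, so folds understate changes near the floor. A mean for each of the 10 groups was fitted to the 30 arrays with limma 3.58.1 (R 4.3.3), which left 20 residual degrees of freedom. Tests were two-sided, and p-values were adjusted by Benjamini-Hochberg over the 18194 genes, or over the 34958 probe sets naming 1 gene where stated, at 0.05. The number of arrays limits the precision. The fit was tested on simulated data. Members, gene lists and the naming rule were chosen with earlier results of these data known. Named genes were the 8 members, up to 3 genes per list with the smallest adjusted p in the averaged comparison and in the Fl/Fl course, Jarid2, and the 2 genes most like each member, with clone names left out. Settings tried as alternatives are in the closing section.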

Additional observations from a re-analysis of the deposited data

Results flagged for a closer look

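Kdm4a read 197 in null day 4 replicate 2, far from the other 4 arrays of that group, which read 128 to 145. The array belongs to the low Eif2s3y set. It was the 1 case among 24 groups of 4 or more arrays tested this way, and chance alone gives about 1 in 20.

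The genotype difference of Kdm4c changed between days by limma's F test (adjusted p = 0.0458), with log2 differences of 0.10, 0.22, 1.26, 0.40 and -0.13 at days 0, 2, 4, 6 and 8.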

How the results depend on the processing

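Counts of members called moved as follows. Without the high Eif2s3y set, 0 members passed the F test for a changing genotype difference (1 with all arrays). With the high set alone the counts were 1, 3, 4 and 4 at days 0, 2, 4 and 6, 1 for null day 4 against Fl/Fl day 2 and 1 for null day 6 against Fl/Fl day 4. Of all 18194 genes it called 2601, 1902, 4457 and 4197 at these days, and 1995 and 1838 across days. With all arrays these counts were 214, 113, 2112 and 1806, and 313 and 86 across days. Array weights gave 3 at day 2, 5 at day 4, 7 at day 6, 4 in the null course, 1 and 1 across days and 3 in the F test. Of all genes, weights called 657, 4262 and 5186 at days 2, 4 and 6 and 3236 in the null course. They called 1012 and 1026 across days and 2243 in the F test. Centring on the 75th percentile gave 1 at day 2, 2 at day 6 and 5 on average (adding Kdm5b and Kdm1a). Of all genes, centring called 90 at day 2, 2112 at day 6 and 10303 on average. Quantile normalization gave 2 at day 6, where it called 2018 of all genes. The mean of all probe sets gave 1 at day 4 and 0 at day 6. A fit of only the groups compared gave 1 at day 4, 3 in the Fl/Fl course and 4 in the null course. The cause of these moves was not tested. The labels' replicate numbers did not pair the arrays: over 10 pairs of the same number and day, r of the deviations from the group means ran from -0.20 to 0.26, with 2 over 0.1. Over all pairs of groups, 37 of 102 same-number pairs and 61 of 294 others were over 0.1, and in null, replicates 3 to 5 of days 2, 4 and 6 are all of the high set. With the replicate block the counts were 1 at day 0 and 1 on average (Kdm2b in both; Kdm3a at adjusted p = 0.0696 and Kdm4c at 0.0646).

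With 1 array left out in turn, the counts ran from 0 to 1 at days 0 and 2, 1 to 3 at day 4, 0 to 2 at day 6, 0 to 0 at day 8, 2 to 3 on average, 6 to 6 in the Fl/Fl course, 5 to 8 in the null course, 0 to 0 in both comparisons across days, 6 to 7 and 5 to 8 in the F tests of Fl/Fl and null, and 0 to 2 in that of the changing difference. Of 1216 single values under the other settings, 1138 stayed on their side of the threshold, 30 were lost, 48 gained and 0 called values changed sign; 58 uncalled values did. The mean of days 0 to 6, the Eif2s3y set as a term and the mean of bright probe sets were added after the data were seen. Day 8 rests on 2 arrays per genotype, and null day 8 on 1 array each of the middle and low sets.

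Over all genes, the counts called also moved by more than 1.5 times. Leaving out the 40% dimmest genes tested 10916 genes and the mean of bright probe sets 7886, the other settings 18194. Counts of these smaller totals are therefore lower partly because fewer genes were tested. Day 0 (214 genes) gave 88 with centring, 113 without the 40% dimmest genes, 123 with only the groups compared, 81 with the mean of bright probe sets, 2601 with the high set alone and 364 without it. Day 2 (113) gave 657 with array weights, 61 with the block, 1902 and 53. Day 4 (2112) gave 4262, and 4457 and 925 with the high set alone and without it. Day 6 (1806) gave 5186, 4197 and 308. Day 8 (457) gave 111 with weights, 299 without the dimmest genes and 270 without the high set. The average (4224) gave 10303 with centring and 1990 without the high set. The courses gave 3960 (Fl/Fl, 6113 over all groups) and 955 (null, 6069) with only the groups compared, and 3236 (null) with weights. The changing difference (899) gave 2243 with weights and 563 without the high set. Null day 4 against Fl/Fl day 2 (313) gave 1012 with weights, 173 with centring, 1995 with the high set alone and 532 without it; null day 6 against Fl/Fl day 4 (86) gave 1026, 155 with the mean of all probe sets, and 1838 with the high set alone.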
